A study of Mus musculus with 24 samples.

Results

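Livers taken at circadian time 15 (CT15) were compared with livers taken at CT03 in GCN2 knockout (KO) mice that ate the Control diet. The 6 libraries, 3 mice at each time, were chosen by their labels for genotype, diet and time out of 24 libraries in 8 groups of 3 mice, and all 14745 genes of the table that holds them were tested. GCN2 is deleted in the whole body, so the CT15 and the CT03 mice of this comparison both lack it. The labels do not name the allele, the strain, the sex or the age. WT mice on the Control diet (3 at CT15, 3 at CT03) and KO mice on LeuD, a diet without leucine (3 at CT15, 3 at CT03), are drawn on below only where the time effect of the KO Control mice is set against theirs. All of these mice lived on a cycle of 12 h light and 12 h dark with food and water always present, and had 2 days of the Control diet before the diet was set at the start of a dark phase. After another 24 h the mice entered 8 days without light, and the livers were taken under red light and snap frozen. CT03 then falls early in the subjective day, the rest phase of a mouse, and CT15 early in the subjective night.

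GCN2, encoded by Eif2ak4, is a kinase activated by transfer RNA that carries no amino acid. It phosphorylates eIF2, which lowers general translation and favours translation of ATF4. The mammalian clock is a loop of transcription: BMAL1 (Arntl) with CLOCK or NPAS2 activates the Per and Cry genes through E-box sequences, and the PER and CRY proteins repress their own activation. REV-ERB receptors (Nr1d1, Nr1d2) and ROR receptors such as Rora act in opposite ways on Arntl, and the PAR-bZIP factors DBP, TEF and HLF, opposed by NFIL3, pass the rhythm to output genes. In mouse liver many rhythmic genes also follow feeding and body temperature, and heat shock genes are known to rise in the active phase.

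Polyadenylated RNA was sequenced, and the 6 libraries held 35487511 to 44879147 reads in listed genes. A normalised count here is the number of reads of a gene divided by the size factor of its library, and a change is CT15 minus CT03 on the log2(normalised count + 1) scale with its SE. A gene was called when its adjusted p, from a limma fit of the 6 libraries with adjustment over all 14745 genes, was under 0.05. With 3 mice per group the p values measure the spread between these mice only. Markers of the labelled tissue were abundant, as the 7 hepatocyte markers summed to 115800 to 133300 RPM (reads scaled to library size) at CT15 and to 108000 to 119000 RPM at CT03.

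Before the effect of time, 2 libraries stood apart from their mates in the KO Control table: CT15 replicate 1 and CT03 replicate 3. Over 11867 genes with a mean of at least 50, the main component held 52.9% of the variance and set these 2 libraries (loadings of 0.76 and 0.31) against the other 4 (-0.35 to -0.12). The other component, with 24.4% of the variance, separated the times, with loadings of 0.29 to 0.45 at CT15 and -0.59 to -0.25 at CT03. Transcripts of pancreas acinar cells summed to 596.2, 37.1 and 44.3 RPM in the CT15 libraries and to 47.7, 36.6 and 239.7 RPM in the CT03 libraries. Igfbp1, an insulin-repressed binding protein of insulin-like growth factors, had 22197, 283 and 1581 normalised counts in CT15 mice, against 583, 758 and 10279.9 in CT03 mice. Scd1, a fatty acid desaturase, had 5207, 504818 and 760921 in CT15 mice, against 376148, 341891 and 14745 in CT03 mice, and Cux2, a transcription factor known to be higher in female liver, had 1468, 26.6 and 34.2 in CT15 mice, against 24.7, 19.6 and 1057 in CT03 mice. The same 2 mice were thus the high ones for Igfbp1 and Cux2 and the low ones for Scd1, one at each time. Results below are given with 6 mice, and for a number of genes and lists also with the 4 other mice. The part of acinar tissue in the difference of these 2 libraries from their mates was not tested. Mitochondrially encoded genes took 5.72% to 6.32% of the reads at CT15 and 4.28% to 5.13% at CT03, without overlap, and albumin took 9.19% to 10.7% at CT15 and 8.48% to 9.47% at CT03; their part in the results below was not tested.

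**Figure D1:**
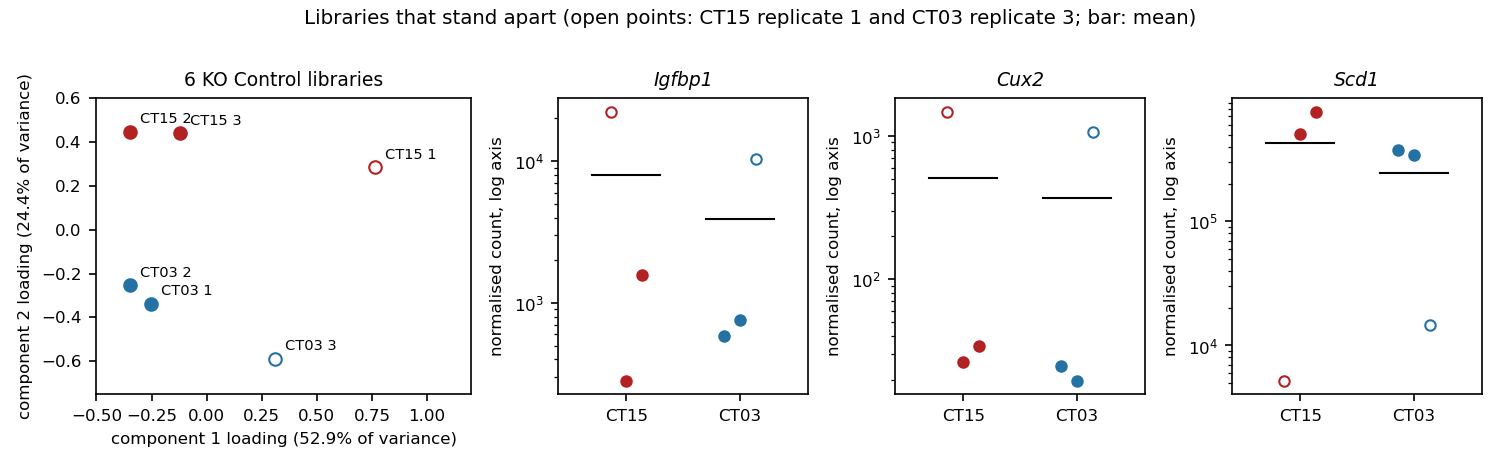
Left, loadings of the 6 KO Control libraries on component 1 (52.9% of the variance) and component 2 (24.4%); right, normalised counts per mouse on a log axis for Igfbp1, Cux2 and Scd1, CT15 left of CT03, with the mean as a bar. The open points, CT15 replicate 1 and CT03 replicate 3, lie to the right on component 1 and apart from the other 4 mice in all 3 genes, while component 2 separates CT15 from CT03.

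Eif2ak4, the targeted gene, had 313, 436 and 406 normalised counts in CT15 mice, against 442, 449 and 378 in CT03 mice (-0.14 ± 0.17, adjusted p = 0.79). Those are reads summed over the whole gene, which do not show whether an exon is lost and so do not check the label. Eif3j2, a translation initiation factor subunit chosen after its values were seen, had 733, 842 and 597 normalised counts in KO CT15 mice and 611, 518 and 559 in KO CT03 mice, against 56, 58.7 and 75.9 in WT CT15 mice and 66.1, 57.1 and 67 in WT CT03 mice. No library on the Control diet stood on the other genotype's side, though reads may be exchanged with the near-identical Eif3j1. As the gene was chosen with these values known, they are not a separate check of the genotype labels.

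Few genes differed between the times past the threshold in the KO Control livers: Tsku, Hsph1, Tsc22d3 and Tedc2 were higher at CT15, and H2-Eb1 and H2-T23 were lower. They were 6 of 14745 genes (0.0407%), 4 higher (0.0271%) and 2 lower (0.0136%). Each liver came from a different mouse, and a difference between the CT15 and CT03 mice other than time was not tested. The quasi-likelihood test of edgeR on the recovered reads called 5 of these 6 and no other gene (0.0339%), 4 higher (0.0271%) and 1 lower (0.00678%), and left out H2-T23. Over all genes the median change was 0.00, and 50.3% of changes were positive. The authors' deposited table holds 357 genes with an adjusted p under 0.05 (2.42%), 182 higher at CT15 (1.23%) and 175 lower (1.19%), and in 352 of the 357 the CT15 and CT03 mice did not overlap. Non-overlap was common among all genes, at 19.9%, 9.73% higher and 10.1% lower. Without the 2 libraries that stood apart, limma called 76 genes (0.515%), 40 higher (0.271%) and 36 lower (0.244%). The 6 genes were among these 76, all 76 had the sign they had in 6 mice, and 52 of the 76 were also past the threshold in the authors' deposited table. At an unadjusted p under 0.05, 841 genes were higher (5.7%) and 978 lower (6.63%). Leaving out a library in turn gave 0 calls without CT03 replicate 1, CT03 replicate 3, CT15 replicate 2 or CT15 replicate 3, 2 calls without CT03 replicate 2 and 5 calls without CT15 replicate 1.

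Tsku encodes tsukushi, a secreted leucine-rich protein made by the liver. It had 2590.0, 3019 and 2402 normalised counts in CT15 mice, against 226, 455 and 257 in CT03 mice. The lowest CT15 mouse was far above the highest CT03 mouse, and the change was 3.15 ± 0.27 (adjusted p = 0.018). In WT Control mice Tsku had 3250.4, 4308 and 2134 at CT15 and 1157, 995 and 3390.1 at CT03, where the groups overlapped (change 0.98 ± 0.46), and in KO LeuD mice it had 4190.1, 6338 and 1901 at CT15 and 4580.1, 417 and 291 at CT03. The time effect in KO exceeded that in WT by 2.18 ± 0.60 in a limma fit of the 12 libraries (adjusted p = 0.98), which did not pass over all genes.

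Tsc22d3 encodes GILZ, a leucine zipper protein induced by glucocorticoids. It had 5407, 4728 and 4524 normalised counts in CT15 mice, against 1359.7, 1574 and 1625 in CT03 mice, so every CT15 mouse was above every CT03 mouse, and the change was 1.68 ± 0.14 (adjusted p = 0.016). The changes were 0.95 ± 0.15 in WT Control mice and 2.20 ± 0.47 in KO LeuD mice. Among the 12 glucocorticoid-responsive genes listed, 7 had a positive change, 1 was called (0.0271% of all genes called higher), and the median was 0.80. In the 4 mice the median was 0.43, Tsc22d3 and Fkbp5 were called higher (0.271% of all genes) and Klf9 was called lower (0.244%). Fkbp5, a co-chaperone of the glucocorticoid receptor, had 10301, 2319 and 3447 normalised counts in CT15 mice, against 941, 702 and 3215 in CT03 mice. There CT03 replicate 3 lay among the CT15 mice, and the change was 1.76 ± 0.70 (adjusted p = 0.38) in 6 mice and 1.80 ± 0.23 with an adjusted p of 0.038 in the 4 mice. Tat, a tyrosine aminotransferase induced by glucocorticoids, had 162241, 58641 and 91321 in CT15 mice, against 32511, 35461 and 66521 in CT03 mice, with CT15 replicate 1 the highest.

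Tedc2 encodes a tubulin delta and epsilon complex protein. It had 4715, 5028 and 5567 normalised counts in CT15 mice, against 1755, 1670.4 and 1479 in CT03 mice (1.64 ± 0.13, adjusted p = 0.016). The spread between mates was small beside the gap between the times, and the changes in WT Control and KO LeuD mice were 1.03 and 1.27.

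Among the core clock genes, Per2 and Cry1 stood higher at CT15 and Nr1d1 lower, but no gene of the core was called in 6 mice. The 24 core genes listed comprise activators, repressors, receptors, PAR-bZIP factors and modifiers. Of these, 17 had a positive and 7 a negative change, with a median of 0.23. At an unadjusted p under 0.05, 5 were higher (5.7% of all genes) and 1 lower (6.63%). By the authors' deposited table Per2 and Cry1 were past the threshold as higher and Nr1d1 as lower, and in the 4 mice Per2 was called as higher.

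The activators did not separate the times. Arntl had 1326, 872 and 493 normalised counts in CT15 mice, against 232, 1149 and 965 in CT03 mice, with the highest value at CT15 and the lowest at CT03. Npas2, a partner of BMAL1 in place of CLOCK, had 158, 63.4 and 19.5 in CT15 mice, against 61.2, 417 and 175 in CT03 mice, and its change was -1.48 ± 0.89, against -3.26 ± 0.75 in WT Control and -5.01 ± 0.67 in KO LeuD mice. Clock had 2836, 2093 and 1376 in CT15 mice, against 1565, 2055 and 1732 in CT03 mice, a change of 0.18 ± 0.26. The 3 changes were 0.38, -1.48 and 0.18 in KO Control mice, while all 3 were negative in WT Control and in KO LeuD mice.

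Of the repressors, Per2 had 940.3, 3260.2 and 1873 normalised counts in CT15 mice, against 431, 362 and 181 in CT03 mice. Every CT15 mouse was above every CT03 mouse, but CT15 values differed several-fold among themselves, and the change of 2.55 ± 0.49 had an adjusted p = 0.16 in 6 mice and was 2.64 ± 0.26 with an adjusted p of 0.03 in the 4 mice. In WT Control mice Per2 changed by 2.44 ± 0.23 (adjusted p = 0.0072). Cry1 had 3101, 1566 and 1343 normalised counts in CT15 mice, against 237, 581 and 492 in CT03 mice (2.19 ± 0.42, adjusted p = 0.16), again without overlap and with CT15 replicate 1 the highest and CT03 replicate 1 the lowest. Per1 had 2425, 364 and 858 in CT15 mice, against 217, 93 and 497 in CT03 mice, and Per3 had 200.1, 446 and 785 in CT15 mice, against 409, 36.2 and 88.4 in CT03 mice, and both overlapped between the times. Cry2 overlapped between the times, with 1504, 1475 and 1517 in CT15 mice, against 1612, 1058 and 1445 in CT03 mice (0.15 ± 0.17). Its change was 0.82 ± 0.11 in WT Control and 0.96 ± 0.18 in KO LeuD mice, and the differences from these 2 time effects were -0.67 ± 0.21 (adjusted p = 0.98) and -0.81 ± 0.25 (adjusted p = 0.75).

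Of the receptors, Nr1d1, which encodes REV-ERBα, had 191, 65.5 and 299.6 normalised counts in CT15 mice, against 5129, 1089 and 3405 in CT03 mice. It was lower in every CT15 mouse, with a change of -4.09 ± 0.71 (adjusted p = 0.13), the largest in size of any core clock gene here, and the authors' deposited table gives -4.11 with an adjusted p of 1.1e-04. Nr1d2 had 1314, 606 and 1824 in CT15 mice, against 3300.4, 1436 and 2095 in CT03 mice (-0.92 ± 0.45) and Rora 3615, 2426 and 2205 in CT15 mice, against 2171, 2508 and 2299 in CT03 mice (0.21 ± 0.20), and for both the groups overlapped.

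Dbp, a PAR-bZIP factor known for a wide swing over the day in mouse liver, had 71.3, 202 and 657 normalised counts in CT15 mice, against 3473, 54.8 and 570.0 in CT03 mice. The CT03 mice spanned from below the lowest CT15 mouse to above the highest, and the change was -1.17 ± 1.47. CT03 replicate 1, the highest for Dbp, was also the highest CT03 mouse for Per3 and Nr1d1, and the lowest for Arntl and Npas2. That library is not among the 2 that stood apart. Tef had 3815, 3765 and 5077 in CT15 mice, against 4185, 1073 and 2295 in CT03 mice, Hlf had 1895, 2401 and 1723 in CT15 mice, against 1787, 1277 and 1767 in CT03 mice, and Nfil3 had 2544, 1338 and 1376 in CT15 mice, against 676, 1279.7 and 1248 in CT03 mice, of which only Nfil3 had groups that did not overlap (0.71 ± 0.34, adjusted p = 0.45). Among the modifiers, Ciart, a repressor of CLOCK-BMAL1 activity, had 161, 115 and 147 normalised counts in CT15 mice, against 101, 21.7 and 31.5 in CT03 mice (1.74 ± 0.53, adjusted p = 0.28), and Bhlhe40, which competes at E-boxes, had 3489, 8443 and 5449 in CT15 mice, against 3277, 4033 and 478 in CT03 mice (1.56 ± 0.79).

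**Figure D2:**
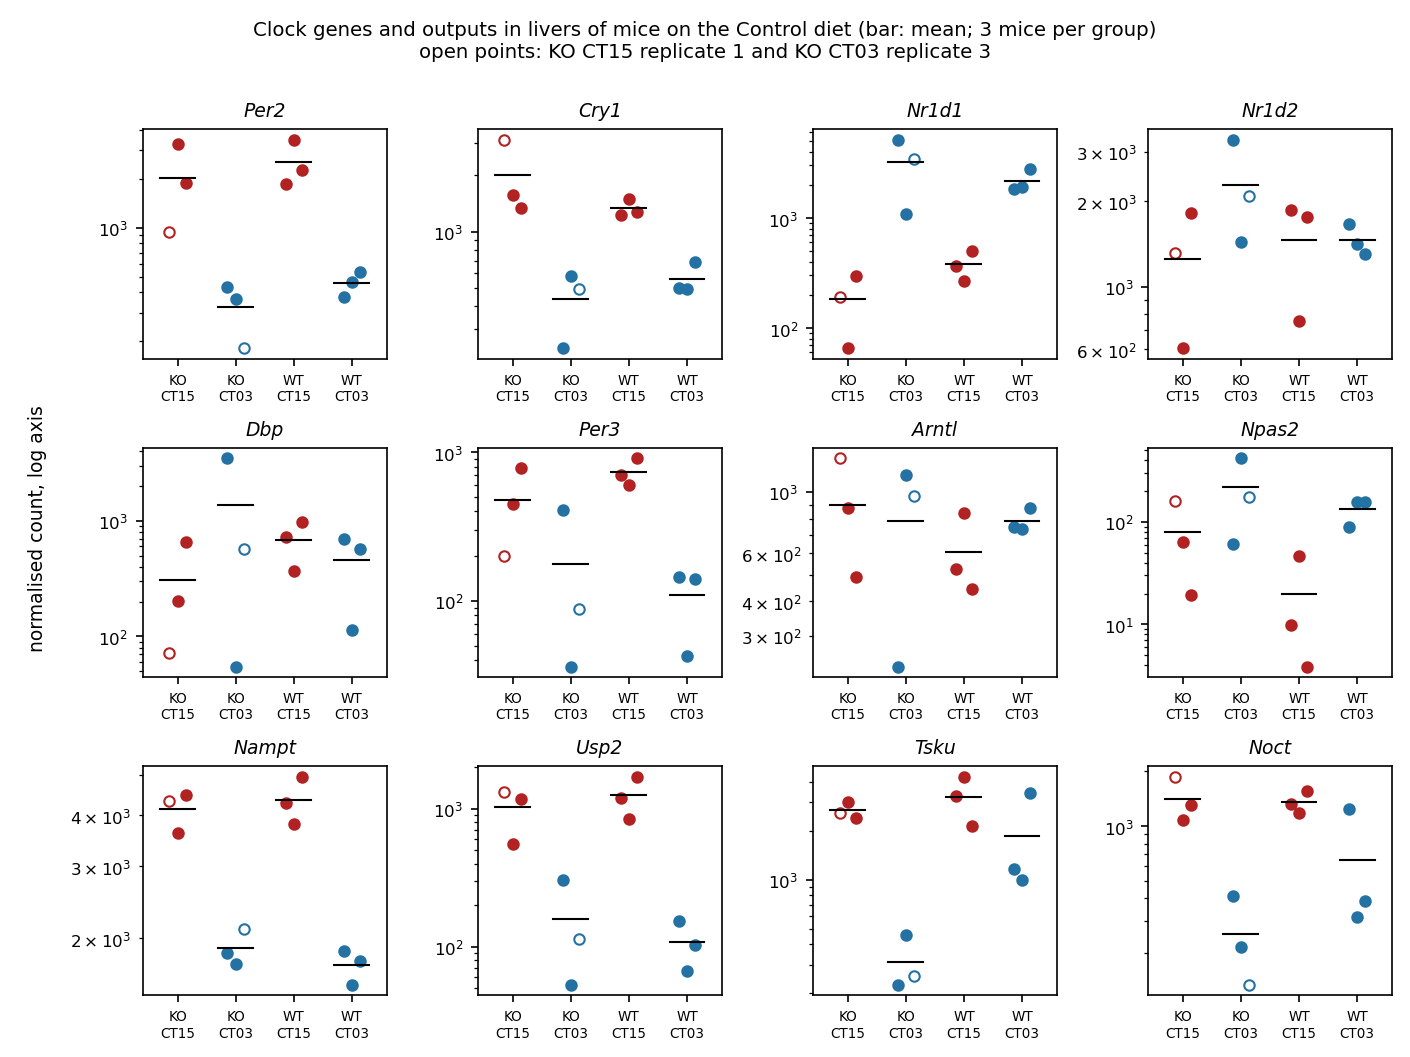
Normalised counts per mouse (log axes) of 12 clock genes and outputs in livers on the Control diet: KO CT15, KO CT03, WT CT15 and WT CT03 from left to right, with the mean as a bar and KO CT15 replicate 1 and KO CT03 replicate 3 as open points. Per2, Cry1, Nampt, Usp2, Tsku and Noct are higher and Nr1d1 lower in every KO CT15 mouse, while KO values of Nr1d2, Dbp, Per3, Arntl and Npas2 overlap between the times.

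Of the 12 clock output genes listed, 11 had a positive change, with a median of 1.19. Tsku was called (0.0271% of all genes called higher). An unadjusted p under 0.05 (5.7% of all genes for higher) and groups that did not overlap (9.73%) were found for 5: Tsku, Nampt, Noct, Usp2 and Lpin1. The same 5 were past the threshold in the authors' deposited table (1.23%). Nampt, the rate-limiting enzyme of NAD salvage, had 4335, 3625 and 4488 normalised counts in CT15 mice, against 1839.8, 1731 and 2104 in CT03 mice. The times were well apart with little spread within each, at 1.13 ± 0.14 (adjusted p = 0.065) in 6 mice and 1.18 ± 0.15 with an adjusted p of 0.038 in the 4 mice. Noct, a phosphatase known for its night peak in mouse liver, had 1868, 1074 and 1301 normalised counts in CT15 mice, against 415, 216 and 134 in CT03 mice (2.58 ± 0.41, adjusted p = 0.097). Usp2, a ubiquitin protease, had 1328, 558 and 1179.8 in CT15 mice, against 306, 52.7 and 114 in CT03 mice (2.95 ± 0.63, adjusted p = 0.18), and the WT Control change was 3.54 ± 0.34. Lpin1, a phosphatidate phosphatase, had 23549, 3585 and 9087 normalised counts in CT15 mice, against 1713, 2449.7 and 882 in CT03 mice, the highest value being CT15 replicate 1. Wee1, a kinase that holds back mitosis, had 183, 797 and 933 in CT15 mice, against 344, 100.3 and 156 in CT03 mice, and Por, the electron donor of microsomal cytochrome P450 enzymes, had 42129.7, 8858 and 20005 in CT15 mice, against 6773, 3557 and 22916 in CT03 mice. For these 2 genes the groups overlapped.

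As sequence context for the clock and heat shock genes, the 250 bases before the start of a gene were read from RefSeq (GRCm38.p6) for the 4 clock or heat shock genes with the lowest p: Hsph1, Tsku, Chordc1 and Nampt. They were searched on both strands for an E-box (CACGTG), a D-box (TTATGTAA), a ROR element (TAGGTCA), a heat shock element of 3 units (GAANNTTC followed by NNGAA) and a glucocorticoid response element (GNACA and TGTNC, 3 bases apart). None of these 4 windows held any of the 5, so the letters stay in lower case. Tsku is at chr7:98361329-98361578 on the minus strand and Nampt at chr12:32820085-32820334 on the plus strand.
Tsku: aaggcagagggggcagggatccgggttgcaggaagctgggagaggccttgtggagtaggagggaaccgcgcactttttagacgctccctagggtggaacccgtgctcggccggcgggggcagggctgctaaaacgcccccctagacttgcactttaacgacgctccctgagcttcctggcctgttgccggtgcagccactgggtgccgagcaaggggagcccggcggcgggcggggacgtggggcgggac
Nampt: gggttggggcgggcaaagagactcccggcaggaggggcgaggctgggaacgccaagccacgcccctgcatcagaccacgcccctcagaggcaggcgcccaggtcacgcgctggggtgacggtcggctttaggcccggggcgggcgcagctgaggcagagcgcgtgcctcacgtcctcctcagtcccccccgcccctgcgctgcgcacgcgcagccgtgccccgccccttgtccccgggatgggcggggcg
After its values were seen, Cry1 was added because its window, chr10:85185055-85185304 on the minus strand, holds an E-box, given in capitals.
Cry1: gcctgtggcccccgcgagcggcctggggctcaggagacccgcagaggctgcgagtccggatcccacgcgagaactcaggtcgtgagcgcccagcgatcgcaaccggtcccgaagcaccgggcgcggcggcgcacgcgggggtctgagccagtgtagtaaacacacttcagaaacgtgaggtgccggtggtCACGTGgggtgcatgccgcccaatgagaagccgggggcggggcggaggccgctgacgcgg
That E-box lies 60 to 55 bases before the start, counted as -60 to -55. Of 36 clock core and output genes, 28 had a promoter in the table, and 5 of these held an E-box (Per1, Cry1, Tef, Bhlhe41 and Ciart), against 6.02% of 32851 promoters. A D-box was in 2 (Per3 and Timeless; 0.819% of all promoters) and a ROR element in 1 (Nfil3; 2.23%).

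Genes of the heat shock response were higher at CT15 together: all 17 listed members had a positive change, with a median of 1.06 (0.00 over all genes). Hsph1 was called. An unadjusted p under 0.05 was found for 12 of 17, all higher (5.7% of all genes), and 13 had CT15 and CT03 mice that did not overlap (9.73%). The authors' deposited table puts 10 of them past its threshold, all higher (1.23% of all genes). In the 4 mice the median was 0.96 and 4 were called higher (Hsph1, Chordc1, Hspa8 and Dnaja1, beside 0.271% of all genes).

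Hsph1, a large chaperone of the HSP110 family that exchanges nucleotide on HSP70, had 4617, 4458 and 4466 normalised counts in CT15 mice, against 803, 1108 and 965 in CT03 mice. The CT15 mice lay within a narrow range far above the CT03 mice, at 2.25 ± 0.15 (adjusted p = 0.016). Chordc1, a co-chaperone of HSP90, had 2536, 2784 and 2718 normalised counts in CT15 mice, against 1025, 1176 and 748 in CT03 mice (1.47 ± 0.18, adjusted p = 0.065; 1.32 ± 0.14 with an adjusted p of 0.03 in the 4 mice). Hspa8, the constitutive HSP70, had 70516, 56875 and 71423 normalised counts in CT15 mice, against 27793, 23528 and 27954 in CT03 mice (1.32 ± 0.17, adjusted p = 0.065). For both, the lowest CT15 mouse was above the highest CT03 mouse by more than the range within either time. Dnajb1, an HSP40 partner of HSP70, had 1903, 1561 and 1814 in CT15 mice, against 784, 947 and 803 in CT03 mice (1.06 ± 0.14, adjusted p = 0.066). The inducible Hspa1a had 73, 129 and 384 normalised counts in CT15 mice, against 50.5, 15.5 and 16.3 in CT03 mice, a change of 2.66, and its near-identical copy Hspa1b had 314, 446 and 1454 in CT15 mice, against 201, 125 and 47.8 in CT03 mice, a change of 2.46, with reads that may be shared between them. Hsf1, the transcription factor of the response, changed by 0.22, and the mitochondrial chaperones Hspd1 and Hspe1 by 0.13 and 0.36, none of them past an unadjusted p of 0.05. Hspb1 and Cryab, small heat shock proteins, had 2303, 864 and 1379 in CT15 mice, against 499, 729 and 1951 in CT03 mice, and 108, 115 and 163 in CT15 mice, against 113, 137 and 109.7 in CT03 mice, with overlap in both.

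The same list had a median of 0.61 in WT Control mice, where 16 of 17 were positive and 4 were called higher in their own table (0.869% of all genes called higher there, 1.42% in both directions), and of 0.55 in KO LeuD mice, where 13 of 17 were positive (0.644% of all genes called higher there). Hsph1 changed by 1.18 ± 0.19 in WT Control and by 0.73 ± 0.52 in KO LeuD mice. The effect in KO Control exceeded these by 1.06 ± 0.26 (adjusted p = 0.98) and 1.51 ± 0.62 (adjusted p = 0.75), which did not pass over all genes. At an unadjusted p under 0.05, 5 of the 17 (Hsph1, Chordc1, Dnaja1, Dnajb1 and Bag3) had a larger time effect in KO than in WT mice, beside 2.38% of all genes with a positive difference. Cirbp, an RNA-binding protein induced by cold, was lower at CT15 in every mouse, with 733, 481 and 528 normalised counts in CT15 mice, against 1408, 961 and 2311 in CT03 mice (-1.36 ± 0.33, adjusted p = 0.21; -1.43 with an adjusted p of 0.0029 in the authors' deposited table). Rbm3, the other cold-inducible gene listed, had 2088, 2148 and 1747 in CT15 mice, against 1623, 1300.3 and 2215 in CT03 mice and overlapped.

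**Figure D3:**
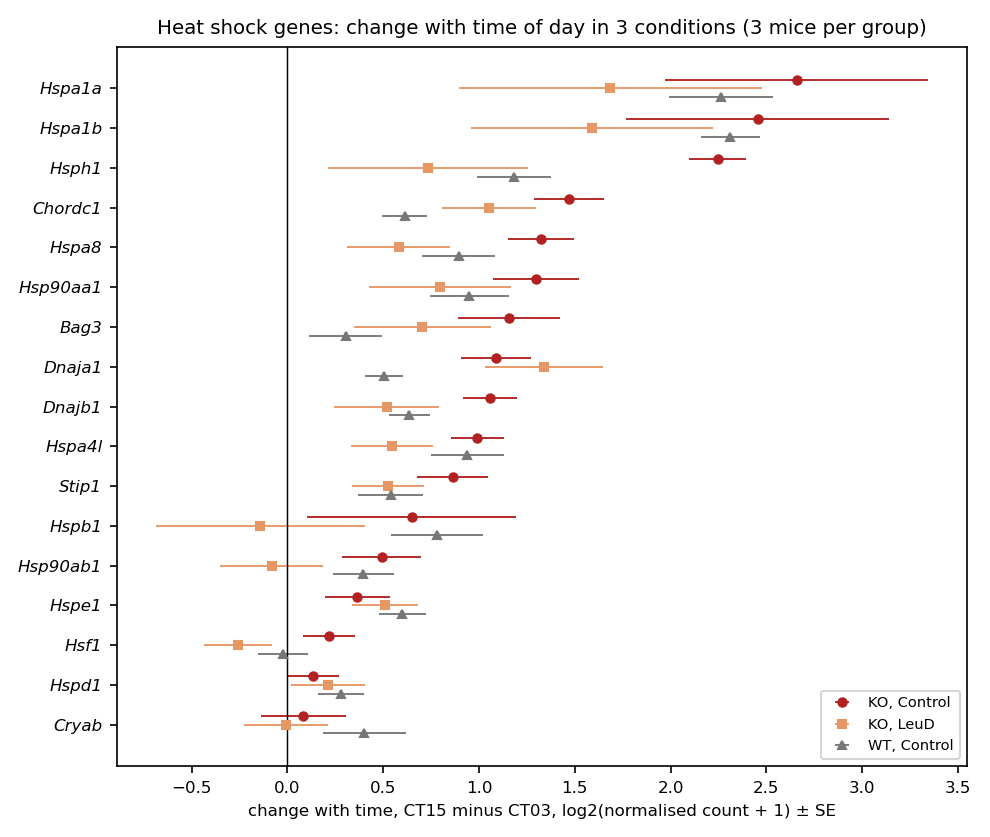
Change with time (CT15 minus CT03, log2(normalised count + 1) ± SE) of the 17 heat shock genes in KO Control (circles), KO LeuD (squares) and WT Control (triangles) livers, 3 mice per group. All 17 circles lie right of 0, from 0.08 for Cryab to 2.66 for Hspa1a, and the circle of Hsph1 at 2.25 lies right of its WT triangle at 1.18 and its LeuD square at 0.73.

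The promoter windows of Hsph1 and Hspe1 carry repeats of the heat shock unit (GAA and its reverse TTC), and that of Chordc1 matches none of the motifs searched. The motifs with 2 units (GAANNTTC and TTCNNGAA, both contained in the longer element) were added after the data were seen. Hsph1 is at chr5:149636337-149636586 on the minus strand, with a match to TTCNNGAA at -33 to -26 in capitals. Hspe1 is at chr1:55087898-55088147 on the plus strand, with 2 overlapping matches to the element of 3 units in capitals, the more distant one at -89 to -77. Hspa1b is at chr17:34959239-34959488 on the minus strand, with GAANNTTC at -104 to -97. Chordc1 is at chr9:18292017-18292266 on the plus strand.
Hsph1: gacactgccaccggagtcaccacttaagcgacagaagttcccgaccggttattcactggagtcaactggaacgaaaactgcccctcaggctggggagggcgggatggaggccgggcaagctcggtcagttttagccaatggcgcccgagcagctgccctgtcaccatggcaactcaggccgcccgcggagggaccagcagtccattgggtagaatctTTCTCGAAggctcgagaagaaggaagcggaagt
Hspe1: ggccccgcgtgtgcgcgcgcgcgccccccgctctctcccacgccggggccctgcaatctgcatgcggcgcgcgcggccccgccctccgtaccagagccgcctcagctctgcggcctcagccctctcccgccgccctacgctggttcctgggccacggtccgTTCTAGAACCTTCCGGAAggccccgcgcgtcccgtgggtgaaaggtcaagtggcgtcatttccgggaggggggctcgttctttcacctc
Hspa1b: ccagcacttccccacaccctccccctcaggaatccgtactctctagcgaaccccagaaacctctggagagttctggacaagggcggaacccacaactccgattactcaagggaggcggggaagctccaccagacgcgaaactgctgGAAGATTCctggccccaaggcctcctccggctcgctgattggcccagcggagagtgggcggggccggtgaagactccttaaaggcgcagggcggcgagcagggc
Chordc1: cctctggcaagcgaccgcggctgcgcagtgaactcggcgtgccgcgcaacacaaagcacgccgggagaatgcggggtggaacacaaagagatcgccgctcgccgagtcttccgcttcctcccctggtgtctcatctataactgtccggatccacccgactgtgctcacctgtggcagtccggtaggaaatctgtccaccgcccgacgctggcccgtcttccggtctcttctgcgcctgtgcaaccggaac
Of the 17 genes, 12 had a promoter in the table. The element of 3 units was in 1 of them (Hspe1; 0.466% of 32851 promoters), GAANNTTC in 5 (Hspa1a, Hspa1b, Hspb1, Hspe1 and Dnaja1; 6.69%) and TTCNNGAA in 2 (Hsph1 and Hspe1; 7.17%). The genes with a match had changes of 2.66 (Hspa1a), 2.46 (Hspa1b), 2.25 (Hsph1), 1.09 (Dnaja1), 0.65 (Hspb1) and 0.36 (Hspe1), and Chordc1, with no match, had a change of 1.47. The other genes without a match are not set beside these, and a link between a match and the change was not tested.

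Chaperones of the endoplasmic reticulum did not follow the cytosolic ones. Of 19 listed, 0 were called by limma or by edgeR, 11 were positive, 2 had an unadjusted p under 0.05 (Dnajb9 and Herpud1, both higher, beside 5.7% of all genes higher and 12.3% in both directions) and the median was 0.04. In the 4 mice the median was -0.0092. In WT Control mice all 19 were negative, with a median of -0.57, and in KO LeuD mice 18 were negative, with a median of -0.40. Dnajb9, a co-chaperone of BiP, had 2636, 2961 and 1943 normalised counts in KO CT15 mice, against 1629, 1619 and 1545 in KO CT03 mice, with no overlap. It had 2525, 1399.6 and 2047 in WT CT15 mice and 2289, 3149 and 5023 in WT CT03 mice. Its time effects differed by 1.41 ± 0.39 (adjusted p = 0.98). Herpud1, part of the degradation machinery of that compartment, had 17681, 7429 and 9459 normalised counts in KO CT15 mice, against 8416, 4615 and 5029 in KO CT03 mice, and its time effects differed by 1.29 ± 0.50 (adjusted p = 0.98). In all, 4 of 19 (Dnajb9, Herpud1, Syvn1 and Hspa5) had an unadjusted p under 0.05 for the difference, all positive, beside 2.38% of all genes.

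Genes that ATF4 and the integrated stress response are known to induce, the arm that GCN2 feeds, gave no common direction in KO Control mice. Of 32 listed, 17 had a positive and 15 a negative change, the median was 0.07, none was called by limma or edgeR, and 5 had an unadjusted p under 0.05 (12.3% of all genes). Ddit4, an inhibitor of mTORC1 that glucocorticoids also induce, had 3602, 1126 and 1211 normalised counts in CT15 mice, against 235, 465 and 371 in CT03 mice. It was higher in every CT15 mouse, most of all in CT15 replicate 1, with 2.30 ± 0.47 (adjusted p = 0.16), and the authors' deposited table gives 2.47 with an adjusted p of 1.1e-05. The WT Control change was 0.80 ± 0.33, and the difference between the time effects did not pass (adjusted p = 0.98). Trib3, a pseudokinase induced by ATF4, had 251, 82.9 and 67.3 normalised counts in CT15 mice, against 645, 151 and 879.9 in CT03 mice, which overlapped (-1.97 ± 0.74), and Ddit3, which encodes CHOP, had 252, 529 and 286 in CT15 mice, against 193, 209 and 197 in CT03 mice (0.75 ± 0.28, adjusted p = 0.35). In WT Control mice 19 of 31 were negative (median -0.12), and in KO LeuD mice 25 of 32 (median -0.53). The genotype difference had an unadjusted p under 0.05 and was positive for 5 of 31 (Ddit4, Ddit3, Fgf21, Mthfd2 and Sars, beside 2.38% of all genes). It was negative for 1, Vldlr (2.74%), and 0 of the 31 were called.

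Both called genes that were lower at CT15 were histocompatibility (H2) genes. H2-Eb1, a class II beta chain that presents peptides to CD4 T cells, had 49.8, 39.9 and 32.2 normalised counts in CT15 mice, against 448, 745 and 421 in CT03 mice. The highest CT15 mouse was far below the lowest CT03 mouse, at -3.67 ± 0.28 (adjusted p = 0.016). In KO LeuD mice it had 59.1, 68.8 and 32.9 at CT15 and 719, 826 and 448 at CT03, also without overlap, whereas in WT Control mice it had 821, 1117 and 1263 at CT15 and 1768, 1037 and 1134 at CT03, with overlap. The time effect differed between KO and WT by -3.38 ± 0.39 (adjusted p = 0.026). H2-T23, a class I gene for Qa-1 that is recognised by natural killer and CD8 T cells, had 594, 878 and 1031 normalised counts in CT15 mice, against 5723, 10015 and 5525 in CT03 mice (-3.07 ± 0.29, adjusted p = 0.034). In WT Control mice H2-T23 had 7352, 8106 and 12085 at CT15 and 11284, 8305 and 8862 at CT03, and the difference was -3.00 ± 0.39 (adjusted p = 0.026).

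H2-T22 and H2-Q5, further class I genes, were called in the difference between genotypes but not in the time test of 6 mice. H2-T22 had 341, 432 and 465 normalised counts in KO CT15 mice, against 2096, 3595 and 1829 in KO CT03 mice (-2.55 ± 0.27, adjusted p = 0.052), and it was called in the 4 mice (-2.61 ± 0.25 with an adjusted p of 0.029). It had 3180.2, 3979 and 5105 in WT CT15 mice and 3831, 3347 and 3609.9 in WT CT03 mice, and the difference in time effect was -2.71 ± 0.34 (adjusted p = 0.026). H2-Q5 had 7.73, 11.3 and 2.93 normalised counts in KO CT15 mice, against 92.4, 122 and 65 in KO CT03 mice (-3.61 ± 0.48, adjusted p = 0.066). It had 244, 295 and 187 in WT CT15 mice and 176, 110.4 and 134 in WT CT03 mice, and the difference was -4.39 ± 0.56 (adjusted p = 0.026). In KO mice both genes were lower in every CT15 mouse, and in WT mice H2-Q5 was higher in every CT15 mouse. These 4 H2 genes were all that passed in the test of the genotype difference (4 of 14525, 0.0275%, all negative). The H2 genes are close copies of each other, and how reads that match several were counted is not given in the sources used here, so their values are uncertain. The labels do not name the strain, and a difference between the KO CT15 and KO CT03 mice other than time was not tested. The 4 differences kept their sign under every setting tried, but leaving out a library in turn gave 0 to 4 calls, with 0 calls without KO CT03 replicate 1, WT CT03 replicate 2 or 3, or WT CT15 replicate 2 or 3.

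The whole list of class I and peptide-loading genes, H2-T23, H2-T22 and H2-Q5 among them, had mostly lower values at CT15. Of 20 listed, 17 had a negative change in KO Control mice, with a median of -0.69. At an unadjusted p under 0.05, 11 were lower (6.63% of all genes) and 1, H2-Q2, was higher. The authors' deposited table puts 8 past its threshold, all lower (1.19% of all genes). In the 4 mice 3 were called lower (H2-T23, H2-T22 and H2-Q7, beside 0.244% of all genes). The median was 0.15 in WT Control and -0.05 in KO LeuD mice. In KO LeuD mice H2-T23, H2-T22 and H2-Q5 were themselves called lower at CT15 (0.161% of all genes called lower there), with changes of -2.39 ± 0.21 (limma, adjusted p = 0.0044), -2.29 ± 0.20 (adjusted p = 0.0044) and -2.60 ± 0.41 (adjusted p = 0.033). H2-K1, a classical class I gene, had 15642, 19816 and 22320.1 normalised counts in CT15 mice, against 35012, 54326 and 34723 in CT03 mice (-1.08 ± 0.23), and Tap1, which carries peptides into the endoplasmic reticulum, had 221, 434 and 440.1 in CT15 mice, against 766, 928 and 841 in CT03 mice (-1.27 ± 0.28). The other classical gene H2-D1 was higher in every CT15 mouse, with 42108, 38304 and 41829 normalised counts in CT15 mice, against 33138, 26321 and 37114 in CT03 mice (0.35 ± 0.18), and B2m, the shared light chain of class I, overlapped between the times, with 39681, 54548 and 56983 in CT15 mice, against 52540.2, 51747 and 48103 in CT03 mice (-0.03 ± 0.19). Of the class II genes, 9 of 11 were measured, with 6 negative and 3 positive changes. H2-Ob and H2-DMb1, like H2-Eb1, were lower in every CT15 mouse, with an unadjusted p under 0.05. H2-Ob had 12.9, 10.2 and 16.6 normalised counts in CT15 mice, against 40.8, 34.1 and 44.7 in CT03 mice. Its change was -1.54 ± 0.31 (adjusted p = 0.16), and it was past the threshold in the authors' deposited table. H2-Ob also had a negative change in WT Control and KO LeuD mice. H2-DMb1 changed by -0.63 ± 0.23 (adjusted p = 0.34). H2-Aa, the alpha chain of another class II molecule, had 979.8, 1154 and 971 normalised counts in CT15 mice, against 961, 684 and 749.8 in CT03 mice, so that the lowest CT15 mouse was just above the highest CT03 mouse (0.38 ± 0.17, adjusted p = 0.42). Cd74, the invariant chain of class II, had a log2 difference of -0.10.

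**Figure D4:**
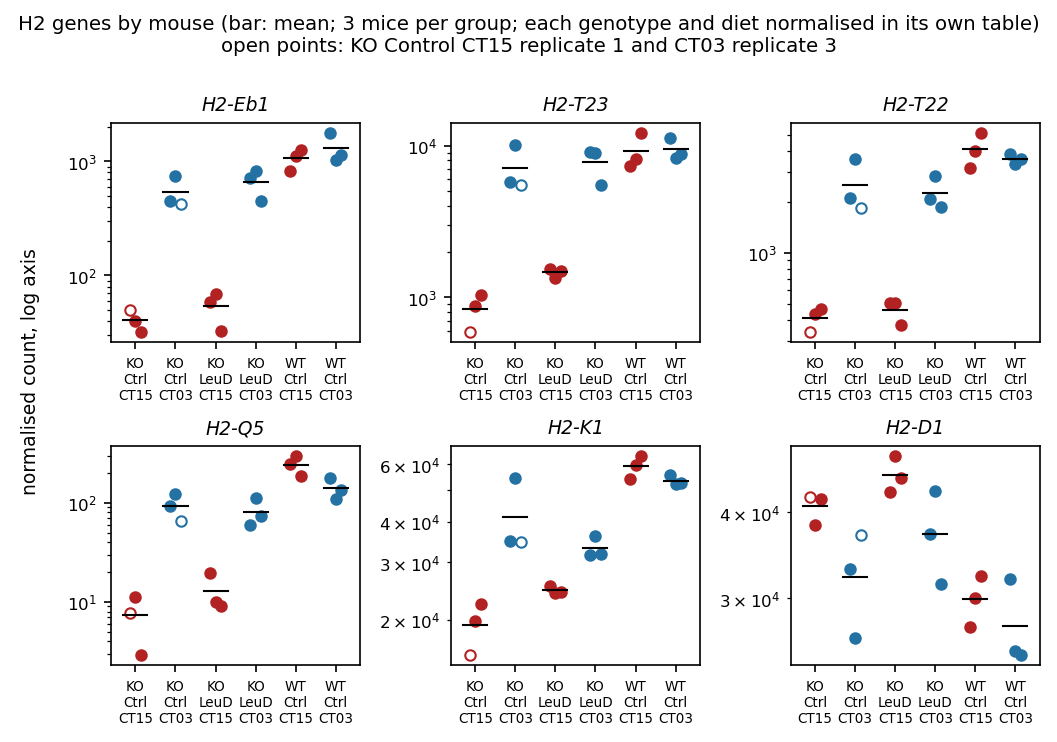
Normalised counts per mouse (log axes) of 6 H2 genes in KO Control, KO LeuD and WT Control livers, CT15 left of CT03 in each pair, with the mean as a bar and KO Control CT15 replicate 1 and CT03 replicate 3 as open points; each genotype and diet was normalised in its own table. H2-Eb1, H2-T23, H2-T22 and H2-Q5 are lower at CT15 in all KO Control mice and not in WT mice, H2-K1 is lower in KO Control mice by a smaller step, and H2-D1 is higher.

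Interferon-stimulated genes, which encode antiviral effectors, had lower values at CT15 throughout their list. All 22 had a negative change, with a median of -0.99. None was called by limma or edgeR, 16 had an unadjusted p under 0.05 (6.63% of all genes for lower), and 15 did not overlap (10.1%). The authors' deposited table puts 10 past its threshold, all lower (1.19% of all genes). In the 4 mice the median was -0.76 and 4 were called lower (Usp18, Rsad2, Ifit1 and Ifit3, beside 0.244% of all genes). Usp18, a protease that removes ISG15 and dampens the interferon receptor, had 169, 148 and 198 normalised counts in CT15 mice, against 479, 648 and 687 in CT03 mice. The highest CT15 mouse was below the lowest CT03 mouse, at -1.80 ± 0.20 (adjusted p = 0.052; -1.69 ± 0.23 with an adjusted p of 0.042 in the 4 mice). Rsad2, which encodes viperin, had 176, 275 and 269 normalised counts in CT15 mice, against 694, 995 and 884 in CT03 mice (-1.84 ± 0.23, adjusted p = 0.065). Isg15, the ubiquitin-like modifier, had 43.8, 145 and 80 in CT15 mice, against 352, 316 and 380.0 in CT03 mice (-2.11 ± 0.40, adjusted p = 0.16), and Ifit1, which binds foreign RNA, had 60.1, 175 and 156 in CT15 mice, against 454, 504 and 462 in CT03 mice (-1.99). All 4 genes were without overlap. Gbp2, Bst2 and Irf1 had small changes, of -0.10, -0.24 and -0.20.

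The direction of this list was not the same on the other diet. In KO LeuD mice 20 of 22 were positive, with a median of 0.53, and in WT Control mice 16 were negative, with a median of -0.15. Usp18 had 967, 3176 and 1213 in KO LeuD CT15 mice and 701, 564 and 248 in KO LeuD CT03 mice (1.75 ± 0.51). The time effect on Control minus that on LeuD was -3.55 ± 0.62 (adjusted p = 0.18). At an unadjusted p under 0.05, 12 of 22 differed between the diets (6.45% of all genes, 2.73% positive and 3.73% negative) and 10 of 22 between the genotypes with a negative difference (2.74% of all genes, 5.12% in both directions). No gene of the 14415 tested passed in the difference between diets with limma, where 930 had an unadjusted p under 0.05, and edgeR called 0 as well. Among the LeuD mice, KO CT15 replicate 3 and KO CT03 replicate 1 held 7174 and 13413 RPM of acinar transcripts. Without them and the 2 KO Control libraries above 200 RPM, 0 genes were called and 400 had an unadjusted p under 0.05. Ddx60 and Irf9, an antiviral helicase and a part of the interferon-activated factor ISGF3 that were named after their values were seen, had 52.4, 92.1 and 83.9 in CT15 mice, against 264, 306 and 309 in CT03 mice, and 704, 1110.3 and 1042 in CT15 mice, against 1399, 1688 and 1816 in CT03 mice, with diet differences of -2.48 ± 0.41 and -1.73 ± 0.29. Markers of macrophages summed to 300.8 to 366.1 RPM in CT15 libraries and 298.2 to 421.9 RPM in CT03 libraries, and of dendritic cells to 5.68 to 6.61 and 5.94 to 7.26 RPM; their part in the H2 and interferon results was not tested.

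**Figure D5:**
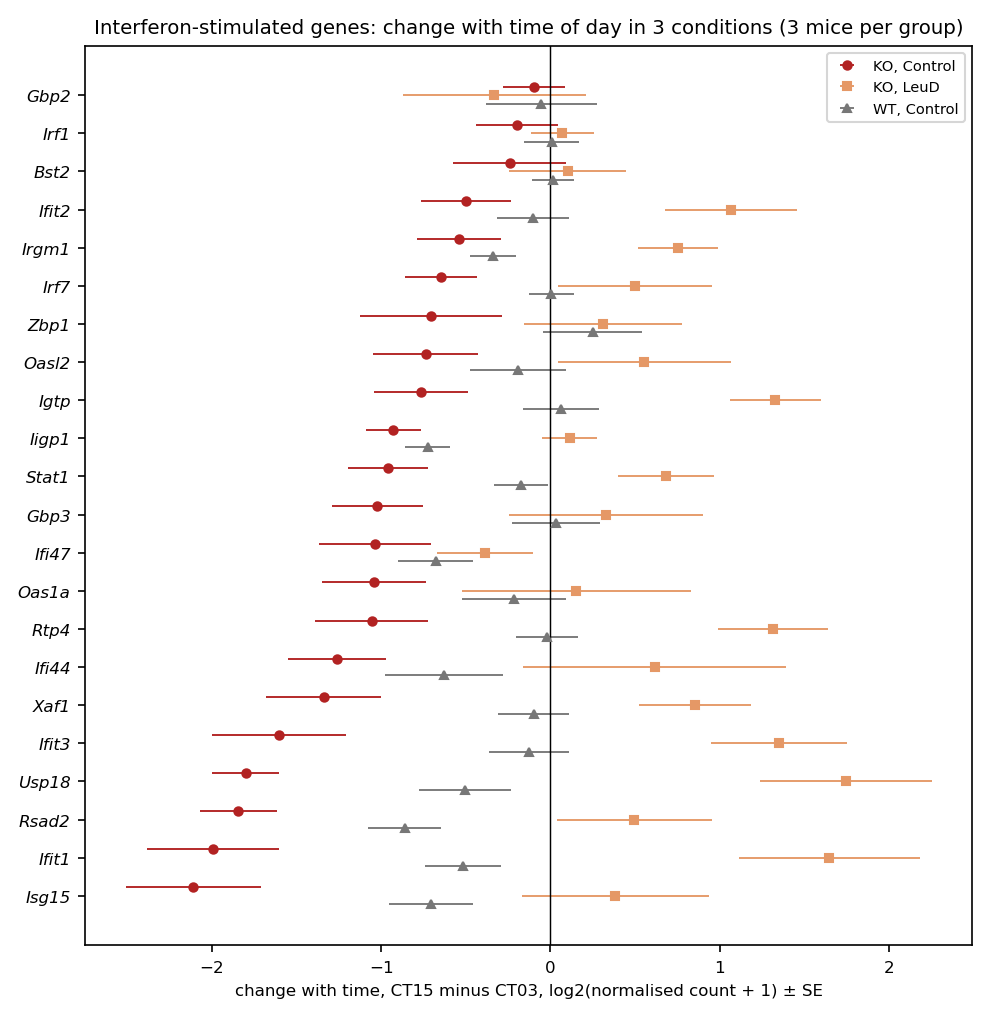
Change with time (CT15 minus CT03, log2(normalised count + 1) ± SE) of 22 interferon-stimulated genes in KO Control (circles), KO LeuD (squares) and WT Control (triangles) livers, 3 mice per group. All 22 circles lie left of 0, from -2.11 for Isg15 to -0.10 for Gbp2, and 20 of the 22 squares lie right of it.

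Some transcripts of B cells had lower values at CT15. Cd79a, a signalling chain of the B-cell receptor, had 24, 21.5 and 23.4 normalised counts in CT15 mice, against 77.3, 69.3 and 105 in CT03 mice (-1.80 ± 0.25, adjusted p = 0.069), and its partner Cd79b had 15.5, 15.3 and 26.3 in CT15 mice, against 51.6, 49.6 and 53.8 in CT03 mice (-1.44 ± 0.30). Neither overlapped between the times, both had an unadjusted p under 0.05, and the authors' deposited table puts both past its threshold. Of the 11 lymphocyte and B-cell markers listed, 3 had an unadjusted p under 0.05, all lower (6.63% of all genes). Groups that did not overlap were found for 3, all lower (10.1%), and 2 were past the threshold in the authors' deposited table (1.19%). Ighd, the delta heavy chain, named after its values were seen, had 11.2, 16.4 and 14.6 in CT15 mice, against 65.5, 86.8 and 71.1 in CT03 mice (-2.33 ± 0.27, adjusted p = 0.065). The changes of Cd79a were -1.62 in WT Control and -2.31 in KO LeuD mice. In whole liver, fewer cells of a type and less RNA per cell cannot be told apart. The 11 lymphocyte and B-cell markers together summed to 15.9 to 17.8 RPM at CT15 and 16.3 to 23.1 RPM at CT03, with 4 of 11 changes positive. Of the other marker lists, none had a called member: endothelial markers summed to 240.4 to 334.6 RPM at CT15 and 244.3 to 297.6 RPM at CT03, stellate markers to 247.9 to 343.9 and 255.8 to 274.3 RPM, and erythroid markers to 238.8 to 366 and 276.5 to 381.7 RPM. No measured marker was at 0 in all 6 libraries.

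Lipid synthesis genes, which feeding and insulin raise in mouse liver, were spread between the mice. Of 21 fatty acid synthesis genes, 16 had a positive change with a median of 0.36, none was called by limma or edgeR, and 0 had an unadjusted p under 0.05. In the 4 mice the median was 0.67. In WT Control mice all 21 were positive with a median of 1.03. Elovl6, a fatty acid elongase, had 1130.1, 18399.8 and 41722 normalised counts in CT15 mice, against 4565, 7898 and 1611 in CT03 mice, and Thrsp, a regulator of lipogenesis, had 1323, 74231 and 43023 in CT15 mice, against 8395, 15568 and 1314 in CT03 mice. In both, CT15 replicate 1 and CT03 replicate 3 were the lowest of their group. Of 22 cholesterol synthesis genes, 8 were positive in KO Control mice with a median of -0.10 (0.17 in the 4 mice, of the other sign), against 21 positive and 0.79 in WT Control mice, and no difference in time effect of these 22 genes had an unadjusted p under 0.05.

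Some sex-biased liver genes were extreme in the same 2 libraries. The 10 male-biased genes were all negative, with a median of -0.83, but of -0.14 in the 4 mice, and 0 were called by limma or edgeR and 0 had an unadjusted p under 0.05. Hsd3b5, a steroid dehydrogenase, had 84.2, 7932 and 4993 normalised counts in CT15 mice, against 15013, 15032 and 580.1 in CT03 mice. The 7 measured female-biased genes were all positive, with a median of 1.97 in 6 mice and 1.67 in the 4 mice. Of these, 0 were called by limma or edgeR and 1 had an unadjusted p under 0.05 (5.7% of all genes for higher). Of 16 measured drug metabolism genes, 9 were positive with a median of 0.10, and 0 were called by limma or edgeR. Cyp2a5, a coumarin hydroxylase of the drug metabolism list, was higher in every CT15 mouse. It had 22368, 25264 and 19621 normalised counts in CT15 mice, against 10145, 6611 and 7935 in CT03 mice (1.46 ± 0.20, adjusted p = 0.066). The near-identical Cyp2a4, whose reads may be shared, was also higher in every CT15 mouse. It had 277, 57.3 and 85.9 in CT15 mice, against 24.7, 18.6 and 35.6 in CT03 mice (2.08 ± 0.58).

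Of the cell cycle genes, 14 of 19 measured had a positive change, with a median of 0.27. Rrm2, a subunit of ribonucleotide reductase, had 392, 441 and 453 normalised counts in CT15 mice, against 108, 182 and 103 in CT03 mice (1.75 ± 0.24, adjusted p = 0.069), and Ccne2, cyclin E2, had 131, 69.6 and 89.8 in CT15 mice, against 47.3, 37.2 and 28.4 in CT03 mice (1.32 ± 0.31). Cdt1, which licenses replication origins, went the other way, with 61.8, 47.1 and 54.6 in CT15 mice, against 109.5, 102 and 185 in CT03 mice (-1.22 ± 0.28). All 3 were without overlap and past the threshold in the authors' deposited table (1.23% of all genes higher and 1.19% lower), and none was called in 6 mice. Of the 19 genes, 3 higher, Cdk1 among them, and 1 lower did not overlap (9.73% and 10.1% of all genes). An unadjusted p under 0.05 was also found for 3 higher and 1 lower (5.7% and 6.63%). Amino acid catabolism genes were divided, 13 positive and 13 negative with a median of 0.03, and so were genes of fatty acid oxidation, with 9 of 20 positive and a median of -0.03. Of bile acid genes 3 of 11 were positive (median -0.08), of insulin and FOXO genes 9 of 12 (median 0.32), and of the growth hormone axis 2 of 9 (median -0.07). In the 4 mice the medians of these 5 lists were 0.17, -0.02, -0.07, -0.00025 and -0.45 in the order given. In these 5 lists limma and edgeR called 0 genes. An unadjusted p under 0.05 was found for 4 of 26, 2 of 20, 0, 0 and 0 genes in the same order, beside 12.3% of all genes. Of 15 acute phase genes 11 were positive, and Orm2, a plasma glycoprotein of the acute phase, had 1000.4, 405 and 702 normalised counts in CT15 mice, against 257, 268 and 375 in CT03 mice (1.15 ± 0.33, adjusted p = 0.27).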

How the data were processed

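The authors deposited 10 tables of pairs of groups, of which 6 were read here, and 34 library columns were not used. Values of 6 libraries stand in each table beside a p-value, its adjusted form and a log2 fold change, per the file headers. What the authors deposited is a signal: counts of reads per gene divided by a size factor per library (0.931 to 1.16 in the KO Control table). Multiplied back, 100% of them came out whole within 0.01, and these recovered reads were used for edgeR and DESeq2. The lowest sum of reads of a gene over the 6 libraries was 61. STAR 2.5.2b, Trimmomatic 0.36, DESeq2, DESeq, Subread 1.5.2 and featureCounts are the tools, and GRCm39 the build, per the submitters' processing notes. The kit named in the labels' protocols does not, by its usual form, mark strand, so overlapping and antisense genes cannot be told apart.

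The main test was limma 3.58.1 (R 4.3.3) with an intensity trend on log2(normalised count + 1), a pseudocount of 1, 2-sided, with Benjamini-Hochberg adjustment and no filter in the time test. Differences between time effects came from 1 limma fit of 12 libraries from 2 tables, over genes in both with a mean of at least 10 in one. An unadjusted p is from the same fits. edgeR 4.0.16 and DESeq2 1.42.0 were alternatives, and Python 3.11.15 was used for the rest. Levels are set side by side across tables that were normalised separately. The limma and edgeR time tests were also run on simulated counts, with the same dispersion set for every gene and no library standing apart. These data differ in that, so the simulation does not measure the error rates here. Between mates the chi-square over its degrees of freedom was 44.8 or more, and no library was treated as a duplicate.

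Replicate numbers were not taken as pairs: the correlations of same-numbered deviations were -0.39, 0.50 and -0.43. The 2 libraries that stood apart have different numbers and correlated at 0.64, so these correlations cannot decide whether the numbers pair the mice. The members and all lists were chosen with earlier results of these data known. Named genes were Eif2ak4, every called gene, up to 12 in each direction with the largest change among those past edgeR's threshold, up to 4 members per list with the lowest p and every clock gene; the other genes given by name were chosen after their values were seen. Some genes that this rule takes are not reported here. Depth gives high precision for most genes here; for genes with few reads, such as the B-cell genes, counting error can approach the spread between mice.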

Additional observations from a re-analysis of the deposited data

Results flagged for a closer look

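The CT15 minus CT03 change differed between KO and WT mice on the Control diet for 4 genes in the limma fit of 12 libraries. The difference, KO minus WT, was -4.39 for H2-Q5, -3.38 for H2-Eb1, -3.00 for H2-T23 and -2.71 for H2-T22 (adjusted p = 0.026 for each). All 3 KO CT15 mice were below all 3 KO CT03 mice in each of these genes. The count fell to 0 without KO CT03 replicate 1, without WT CT03 replicate 2 or 3, or without WT CT15 replicate 2 or 3. The H2 genes are near-identical in parts, and how their reads were assigned was not tested. A difference between the KO CT15 and KO CT03 mice other than time was not tested either.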

How the results depend on the processing

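For time in KO Control mice, the 6 calls were also 6 under pseudocounts of 0.5 and 8, minimum means of 10 and 50 and TMM scaling, and edgeR called 5. The count was 0 with the replicate block, although the numbers were not taken as pairs, and 0 to 5 when a library was left out. It was 76 without the 2 libraries that exceeded 200 RPM of acinar transcripts, 357 with DESeq2 and in the authors' deposited table (the same 357 genes), 291 with limma on the 12 Control libraries, and 575 with limma and 564 with edgeR on all 24 libraries. All 6 genes were among the calls of these last 6 settings. No called gene changed sign, with 77 settings past the threshold and 37 not past it over the 6 genes. Of 194 other genes followed through these settings, none of them called, 63 passed under some setting and 39 changed sign under some setting. For the genotype difference the 4 calls were 1 with the replicate block and 0 to 4 when a library was left out, and 5 without the 2 libraries just named. For the diet difference the count was 0 under all settings but one, being 0 to 1 when a library was left out: Arfgap3 passed without KO LeuD CT03 replicate 3. The causes of these changes were not tested. The settings that leave libraries out also have fewer mice, and the part of that was not tested either.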

Other observations

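The genes in these paragraphs were named after their values were seen. Several enzymes and secreted proteins outside the lists separated the times in KO Control livers. St6gal1, a sialyltransferase, had 1825, 1658 and 1761 normalised counts in CT15 mice, against 4279.9, 4414 and 3552 in CT03 mice (-1.22 ± 0.13, adjusted p = 0.052; -1.35 ± 0.12 with an adjusted p of 0.025 in the 4 mice without the libraries that stood apart). Fmo5, a flavin monooxygenase, had 40794, 51858 and 40309 in CT15 mice, against 17770.4, 19120.4 and 17107 in CT03 mice (1.29 ± 0.16, adjusted p = 0.065). Nrg4, a ligand of the ErbB4 receptor, had 666, 473 and 635 in CT15 mice, against 228, 148 and 109 in CT03 mice (1.92 ± 0.29), with changes of 2.09 in WT Control and 3.85 in KO LeuD mice and a diet difference of -1.94 ± 0.41 (adjusted p = 0.35). In all 3 genes the CT15 and CT03 mice did not overlap. Serpinb1a, an inhibitor of neutrophil proteases, had 107, 73.7 and 84.9 normalised counts in CT15 mice, against 506, 466 and 973 in CT03 mice (-2.79 ± 0.31, adjusted p = 0.052), while WT Control mice had 72, 413 and 259 at CT15 and 113, 222 and 390.3 at CT03; the difference in time effect was -2.68 ± 0.83 (adjusted p = 0.98).

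Some genes were called in the 4 mice and not in 6. Eif4ebp3, a translation repressor that binds eIF4E, had 2284, 1442 and 1293 normalised counts in CT15 mice, against 263, 345 and 1622 in CT03 mice, with CT03 replicate 3 among the CT15 mice (2.18 ± 0.18 with an adjusted p of 0.016 in the 4 mice). Klf9, a transcription factor induced by glucocorticoids, had 6339, 1890.0 and 1778 in CT15 mice, against 4201, 3775 and 3495 in CT03 mice, with CT15 replicate 1 above the CT03 mice (-1.12 ± 0.13 with an adjusted p of 0.035). C4a, a complement component with a near-identical paralog, had 422, 5192 and 4286 in CT15 mice, against 1480.0, 895 and 414 in CT03 mice (2.03 ± 0.24 with an adjusted p of 0.035).

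Along the RefSeq gene order, 10 of the 50 neighbouring tested genes from Vars to H2-T22 on chromosome 17 had an unadjusted p under 0.05 for the genotype difference, beside 5.12% of all genes and 6.21% of the 676 tested on that chromosome. This window was picked for the highest count on the chromosome. The 10 include H2-T22, already called in the same test, so the count is not separate support for the H2 calls. The highest count in a window of 50 genes on any other chromosome was 9, on chromosome 2.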
